A study of Arabidopsis thaliana with 6 samples.

Results

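The loci described here are the nuclear loci of Arabidopsis thaliana whose identifiers run from AT2G07660 to AT2G07799, a stretch of chromosome 2 that takes in the insertion of mitochondrial DNA next to the centromere. They were chosen by identifier alone, as every array row whose locus code, in alphabetical order, lay in that range, which gave 87 of the 27827 rows on the array. The RNA came from ripe pollen of ecotype Columbia 0, shed either by the wild type or by plants with 1 mutant copy of NOT1 (NOT1+/-), with 3 biological replicates of each genotype and 1 array per replicate. Grains were sorted from open flowers by fluorescence, and a NOT1+/- plant sheds grains with and without the mutant allele, so each NOT1+/- sample was a mixture. The labels do not state the kind of mutation, and in such bulk samples more cells of a kind and more RNA per cell cannot be told apart.

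Plant mitochondria keep a small genome of their own, which encodes subunits of the respiratory chain and of the ATP synthase, proteins for cytochrome c maturation, ribosomal proteins, transfer RNAs and many open reading frames of no known role. Pieces of this genome have been copied into the nucleus, and the Columbia accession carries a large and nearly unchanged copy in the pericentromere of chromosome 2. RNA from such a nuclear locus and RNA from the organelle can have almost the same sequence. An array probe that matches both cannot assign a signal to either of them. NOT1 is the scaffold of CCR4-NOT, the complex that shortens poly(A) tails of messenger RNAs. In what follows, a rise or a fall of a locus is a change in the signal of its row, whichever genome the RNA came from.

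Of the 87 loci, 27 were higher in NOT1+/- pollen, 2 were lower and 58 did not pass the test, limma on log2 intensity with Benjamini-Hochberg adjustment over all 27827 rows and a threshold of 0.05. The share of higher loci was 31.0%, against 8.84% of all rows, and the share of lower loci was 2.30%, against 3.22%. At least 4-fold rises made up 19 of the 27, or 21.8% of the 87 loci, against 2.68% of all rows. Yet the median log2 fold change of the 87 loci was -0.08, beside -0.10 for all rows. The log2 fold changes of the 27 raised loci ran from 0.89 to 4.39, while those of the 58 uncalled loci stayed between -0.68 and 0.64. Over all rows, 2461 were higher and 896 lower, a split of 2201 and 1991 with quantile-normalized arrays and of 2211 and 1460 with arrays centred on their 75th percentile. Under both scalings 27 of the 87 loci were called higher.

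Values are intensities on a linear scale, and levels of different rows describe signal only, since each row has its own probes, and do not rank the amounts of RNA. The array medians lay between 12.0 and 13.1 over the 6 arrays, and no detection calls were used, so no locus could be called absent. The row of AT1G02080, taken as NOT1 from general knowledge, read 47.6, 51.0 and 46.9 in wild type and 28.6, 31.8 and 32.6 in NOT1+/- pollen (log2 fold change -0.65, SE 0.15, limma adjusted p = 0.029). That call was lost in each of the 6 fits with 1 array removed (adjusted p = 0.053 to 0.118) and after median centring (0.055), and with the replicate number as a block (0.070). In the other settings tried that kept all 6 arrays, the call held (limma adjusted p = 0.0030 to 0.030). Marker rows had wild-type mean intensities of 275 to 3070 for 6 pollen genes, 15.6 to 125 for 4 sperm genes, 9.40 to 12.6 for 4 leaf photosynthesis genes and 12.3 to 36.7 for 3 tapetum genes, so the sperm and tapetum ranges overlapped. In NOT1+/- pollen 3 of the 6 pollen markers were higher (median log2 fold change of the list 0.35, range -0.17 to 1.53), as were 2 of the 4 sperm markers (median 0.53, range -0.09 to 1.08), with 0 lower in either list. The part of these shifts in the changes of the 87 loci was not tested. The leaf genes had NOT1+/- means of 5.91 to 10.2 and the tapetum genes 9.87 to 37.4, and limma called 0 of 4 and 0 of 3, with 1 and 0 at an unadjusted p under 0.05.

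The largest fitted log2 fold change was that of AT2G07698, a protein-coding locus in the reference gene table. It read 20.0, 6.65 and 3.36 in wild type and 206, 147 and 136 in NOT1+/- pollen. The wild-type values were spread widely, and 2 of them were under the median of their array. The log2 fold change of 4.39 accordingly had a wide interval (SE 0.57, 95% interval 3.06 to 5.72, limma adjusted p = 0.0017). It was 5.08 without wild-type replicate 1, 3.80 without wild-type replicate 3 and 2.81 when every intensity was raised by 16. On that offset scale AT2G07731 (3.52), AT2G07687 (3.13), AT2G07723 (3.09), AT2G07707 (3.04), AT2G07675 (3.03), AT2G07709 (2.92) and AT2G07751 (2.83) were all above AT2G07698. AT2G07731, which the table lists as a transcribed pseudogene, had 53.1, 60.1 and 60.3 in wild type against 962, 961 and 622. This was a 14.4-fold rise (log2 fold change 3.85, SE 0.21, limma adjusted p = 2.21e-05). The groups were far apart compared with the spread in either.

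AT2G07687, a protein-coding locus, went from 26.0, 36.6 and 25.3 to 473, 405 and 281, which is 13.1-fold (log2 fold change 3.71, SE 0.25, limma adjusted p = 5.28e-05). AT2G07675, also protein-coding, read 54.8, 44.0 and 54.7 in wild type and 626, 569 and 419 in NOT1+/- pollen, a 10.4-fold rise (3.38, SE 0.20). AT2G07723, a transcribed pseudogene, had the highest mean signal of the 87 rows in both genotypes, with 84.8, 90.8 and 90.0 in wild type. Its NOT1+/- arrays read 1124, 954 and 620, with all 3 far above the wild-type values (3.30, SE 0.23, limma adjusted p = 6.96e-05).

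A further 5 loci reached means of 398 to 779 in NOT1+/- pollen. AT2G07707 rose from 79.1 ± 12.8 to 779 ± 201 (SD, n = 3 arrays; log2 fold change 3.28) and AT2G07709 from 55.9 ± 2.32 to 538 ± 123 (3.24). AT2G07751 had a log2 fold change of 3.15 (SE 0.23), and its values are given further on beside those of a mitochondrial row. AT2G07717 rose from 58.8 ± 5.58 to 484 ± 138 (3.00) and AT2G07727 from 52.4 ± 4.82 to 398 ± 110 (2.89). In each of the 27 raised loci all 3 NOT1+/- values lay above all 3 wild-type values. Such a separation upwards was seen in 29 of the 87 loci and in 14.9% of all rows. An exact permutation test (two-sided) of 3 arrays against 3 cannot go below p = 0.1, which each of these loci reached.

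**Figure D1:**
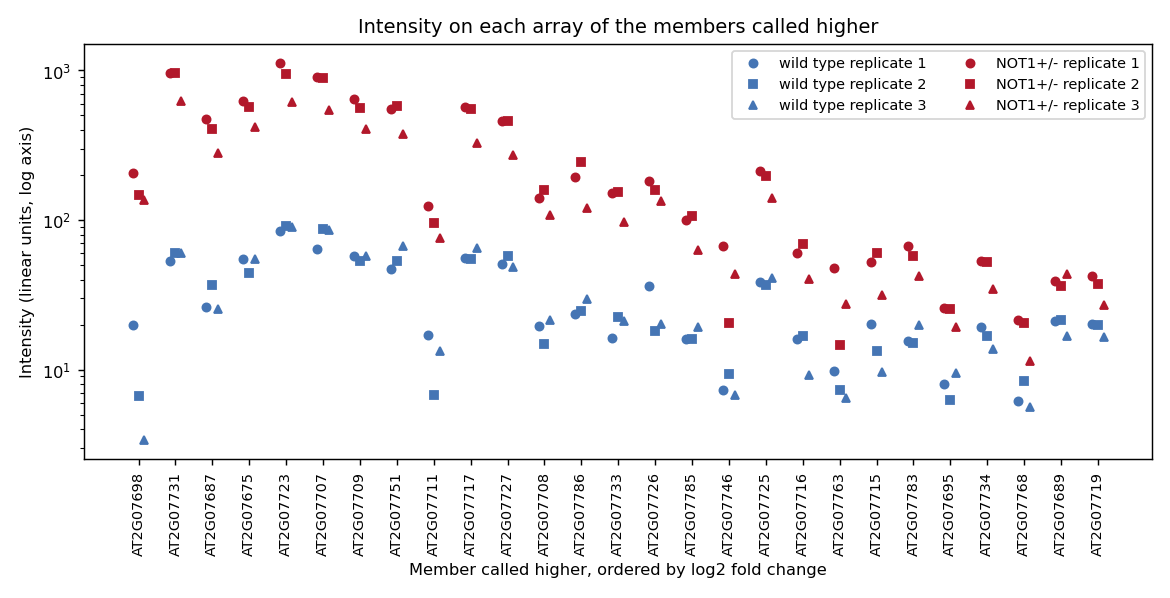
Intensity (linear units on a log axis) on each of the 6 arrays for the 27 loci called higher, ordered along the horizontal axis by log2 fold change; blue symbols are wild type, red symbols NOT1+/-, and the shape gives the replicate. In every one of these loci the red symbols lie above the blue ones, from AT2G07698 (log2 fold change 4.39) to AT2G07719 (0.89).

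A middle group of raised loci went from means of 12.4 to 26.0 in wild type to means of 98.9 to 187. AT2G07711 (log2 fold change 3.07, SE 0.35), AT2G07708 (2.86, SE 0.22), AT2G07786 (2.79, SE 0.27), AT2G07733 (2.74, SE 0.24) and AT2G07726 (2.73, SE 0.28) belonged here. AT2G07711 read 17.0, 6.79 and 13.4 in wild type and 125, 95.6 and 76.3 in NOT1+/- pollen. AT2G07726 had 36.0 on wild-type replicate 1 but 18.3 and 20.3 on the others, still well below its 182, 160 and 133 in NOT1+/- pollen. AT2G07785 (2.37, SE 0.23), AT2G07725 (2.21, SE 0.20) and AT2G07716 (2.04, SE 0.30) were the remaining rises of at least 4-fold outside the transfer RNA loci described further on.

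The rises under 4-fold numbered 8, with log2 fold changes of 0.89 to 1.79 and NOT1+/- means of 17.8 to 55.6. They were AT2G07763 (1.79), AT2G07715 (1.75), AT2G07783 (1.71), AT2G07695 (1.56), AT2G07734 (1.48), AT2G07768 (1.36), AT2G07689 (1.01) and AT2G07719 (0.89). AT2G07695 read 8.03, 6.31 and 9.50 in wild type and 25.7, 25.2 and 19.2 in NOT1+/- pollen, so it moved from below the array medians to above them. Fits with 1 array fewer ended the call of 4 of the 27 loci. AT2G07719 lost its call without any of 5 arrays (all but NOT1+/- replicate 3), with adjusted p-values up to 0.119. AT2G07763 lost it without NOT1+/- replicate 1 or 3 or wild-type replicate 2 or 3 (up to 0.088), AT2G07768 without NOT1+/- replicate 1 or 2 or wild-type replicate 1 (up to 0.079), and AT2G07715 without NOT1+/- replicate 1 or 2 (up to 0.057).

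Both falls were small. AT2G07794, a transfer RNA locus for methionine in the table, read 7.09, 7.03 and 9.11 in wild type and 3.62, 4.66 and 5.07 in NOT1+/- pollen (log2 fold change -0.80, SE 0.20, limma adjusted p = 0.037). AT2G07714, a protein-coding locus, read 21.4, 15.7 and 17.7 against 10.3, 12.98 and 9.90 (-0.72, SE 0.19, adjusted p = 0.0498). Neither call held in any of the 6 fits with 1 array removed, after median centring or after quantile normalization, and all values of AT2G07794 lay below the array medians. The next largest differences downwards, in AT2G07729 (-0.68, adjusted p = 0.078), AT2G07777 (-0.68, 0.108) and AT2G07757 (-0.66, 0.075), did not pass.

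Among the 58 loci that were not called, log2 fold changes ran from -0.68 to 0.64 with a median of -0.19, and 44 of the 58 were below 0. The median of all rows was -0.10. Means of these loci in wild type were 5.34 to 83.5, and 22 of the 58 lay below all 6 array medians. Complete separation downwards was seen in 17 of the 87 loci, of which 15 were uncalled, and in 16.9% of all rows. Loci with clear signal and little difference were among them: AT2G07688 read 75.1, 93.7 and 81.6 in wild type and 60.5, 95.6 and 68.2 in NOT1+/- pollen (-0.18, limma adjusted p = 0.65). AT2G07684 read 66.9, 83.1 and 67.8 against 47.2, 44.1 and 53.1, groups that did not overlap (-0.59, adjusted p = 0.066). It was called lower in 6 of the 9 alternatives that kept every array, with adjusted p-values of 0.0087 (quantile-normalized arrays) to 0.048 (array weights), and in 0 of the 6 fits with 1 array removed. At the dim end, AT2G07678 had a wild-type mean of 5.34, AT2G07664 of 5.98, AT2G07756 of 6.75 and AT2G07752 of 7.52, with log2 fold changes of 0.19, -0.39, 0.24 and 0.15, none of them called.

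Exact equality of rows was examined next, since rows with the same value on all 6 arrays are 1 measurement under several names. Of the 87 loci, 28 had all 6 values in common with a row whose identifier begins with ATMG, the code of the mitochondrial genome, and these matched 28 different ATMG rows of the 92 on the array. None of the 87 loci shared its values with another of them. AT2G07688 was equal to the chloroplast row ATCG00020, and AT2G07748, a transfer RNA locus for tryptophan, was equal to ATMG00930 and also to the chloroplast row ATCG00610. In all, 29 of the 87 loci were not measured apart from an organelle row.

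Of the 28 loci equal to a mitochondrial row, 9 were higher, 1 was lower and 18 did not pass. The raised ones were AT2G07675 (equal to ATMG00980), AT2G07783 (ATMG00830), AT2G07707 (ATMG00480), AT2G07709 (ATMG00510), AT2G07711 (ATMG00513), AT2G07786 (ATMG00516), AT2G07723 (ATMG00180), AT2G07731 (ATMG00270) and AT2G07733 (ATMG00285). Their median log2 fold change was 3.24, and 8 of the 9 rose at least 4-fold. The lower one was AT2G07794, equal to ATMG00460.

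The 18 equal loci that were not called had log2 fold changes of -0.68 to 0.64. They were AT2G07743 (ATMG01070), AT2G07664 (ATMG01040), AT2G07677 (ATMG00940), AT2G07748 (ATMG00930), AT2G07752 (ATMG00800), AT2G07686 (ATMG00750), AT2G07755 (ATMG01340), AT2G07691 (ATMG01310) and AT2G07713 (ATMG00540). The others were AT2G07718 (ATMG00590), AT2G07757 (ATMG00230), AT2G07729 (ATMG00240), AT2G07758 (ATMG00250), AT2G07799 (ATMG00260), AT2G07736 (ATMG00300), AT2G07737 (ATMG00310), AT2G07762 (ATMG00350) and AT2G07764 (ATMG00380). AT2G07743, a transfer RNA locus for aspartate, had the highest wild-type signal of these, with 76.0, 65.5 and 62.9 in wild type and 68.5, 53.3 and 67.4 in NOT1+/- pollen. AT2G07762, a transfer RNA locus for proline, had the largest positive difference, from 15.9, 15.1 and 9.91 to 27.8, 19.8 and 16.1 (log2 fold change 0.64, SE 0.27, limma adjusted p = 0.18).

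The other 59 loci were equal to no ATMG row, and 18 of them were higher, with a median log2 fold change of 2.28. A rise was therefore also recorded by rows with values different from every ATMG row on the array. Equality could be found only where a mitochondrial code has a row, and of 38 ATMG codes listed further on 27 had one. Several of the 59 loci nevertheless followed a mitochondrial row closely. With a tolerance of 0.25 log2 units on every array, set after the values were seen, 12 of the 59 (20.3%) lay that close to an ATMG row, against 4.96% of the 27633 other nuclear rows. Among raised rows the shares were 6 of 18 loci (33.3%) and 36 of 2400 other nuclear rows (1.50%). The rows compared were not matched in level or size of change, on which closeness depends, and the shares were not tested. AT2G07716 differed from ATMG00570 by at most 0.031 log2 units on any array, AT2G07756 from ATMG00190 by 0.032 and AT2G07751 from ATMG00990 by 0.035. AT2G07751 read 47.2, 52.9 and 67.5 in wild type and 549, 577 and 374 in NOT1+/- pollen, where ATMG00990 had 46.1, 51.8 and 66.3 and then 538, 564 and 366.

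Among the 18 raised loci, the farthest from any ATMG row was AT2G07698, which differed from its nearest ATMG row by 1.80 log2 units on at least 1 array, followed by AT2G07768 (0.93) and AT2G07687 (0.69). Just inside the tolerance stood AT2G07717, at 0.25 from ATMG00580. Which RNA the probes of each row match, organellar, nuclear or both, was not tested.

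The matched mitochondrial rows came partly in the order of their locus numbers along chromosome 2. In the order of the gene table (assembly TAIR10.1, used only for names and gene order), the locus numbers of the 28 equal ATMG rows were split into 4 runs. A run ended only where the numbers changed direction, whatever the size of the step. The first run of 8 loci, from AT2G07743 to AT2G07686, fell from ATMG01070 to ATMG00750. A second of 3 loci, from AT2G07755 to AT2G07794, fell from ATMG01340 through ATMG01310 to ATMG00460. Its last step went from rank 89 to rank 26 among all ATMG rows by locus number. AT2G07794 could therefore as well be placed at the head of the third run. In the third run, of 6 loci from AT2G07707 to AT2G07718, the numbers rose from ATMG00480 to ATMG00590, and in the fourth, of 11 loci from AT2G07723 to AT2G07764, from ATMG00180 to ATMG00380. Of the 12 loci that were close to an ATMG row but not equal, 11 had a match whose number lay between those of the equal loci on either side. The other, AT2G07779, had no equal locus before it. For AT2G07785, AT2G07696 and AT2G07697 the flanking rows were ATMG01310 and ATMG00460, a span so wide that lying within it says little. AT2G07785 matched ATMG00500 but stood before the loci that matched ATMG01270 and ATMG01250, so it broke the order. The order was not used to choose the loci and is given as a description.

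**Figure D2:**
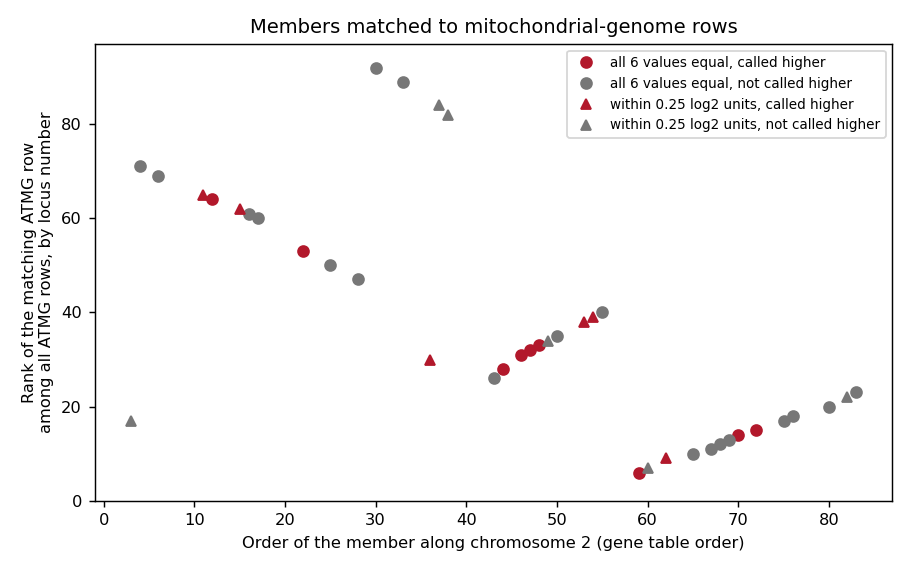
Order of each matched locus along chromosome 2 in the gene table (horizontal axis) against the rank of its matching ATMG row among the 92 ATMG rows by locus number (vertical axis); circles are the 28 loci with all 6 values equal, triangles the 12 within 0.25 log2 units, and red marks loci called higher. Most points run along falling and rising diagonals, with AT2G07779 and AT2G07785 away from them. Red and grey points are mixed along the diagonals.

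Raised and uncalled loci were interleaved within these runs. The first run held 2 raised loci of 8, the second 0 of 3, the third 4 of 6 and the fourth 3 of 11. Over all 87 loci in gene order, the 27 raised ones formed 15 separate stretches, of which 8 were single loci. The longest stretch was AT2G07707, AT2G07708, AT2G07709, AT2G07711 and AT2G07786, followed directly by AT2G07712, which did not pass (20.4, 24.9 and 38.3 in wild type, 28.2, 37.6 and 23.2 in NOT1+/- pollen; log2 fold change 0.11, limma adjusted p = 0.84). The table shows 12 of the 87 loci overlapping another of them, 4 of these among the raised ones, and strand was not used, so the signals of such pairs may not be separate.

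The identifier range was wider than the insertion. In table order 83 of the 87 loci came before AT2G07680, and the 4 from there on were AT2G07680 (ABCC13, of the ATP-binding cassette transporters), AT2G07690 (MCM5, a subunit of the replicative helicase), AT2G07750 and AT2G07760. Of these 4 limma called 0 (adjusted p = 0.053 to 0.68), with 1 at an unadjusted p under 0.05. Over all rows 12.1% were called in either direction, so 0 of 4 says little about the loci from there on. Of the same 4, 0 were within the tolerance of an ATMG row, which AT2G07680 missed narrowly (0.255 log2 units). ABCC13 read 17.0, 16.0 and 14.4 in wild type and 10.4, 11.4 and 9.66 in NOT1+/- pollen, without overlap (log2 fold change -0.59, SE 0.16, adjusted p = 0.053). MCM5 read 19.7, 20.6 and 15.6 against 17.0, 16.6 and 17.1, which overlapped (-0.13, adjusted p = 0.68). All 27 rises and both falls were thus among the 83 loci of the block. The only other locus with a symbol, ABCI4 (AT2G07681), lies within the block and had 13.9, 7.94 and 15.5 against 8.04, 7.44 and 9.58 (-0.52, adjusted p = 0.27).

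**Figure D3:**
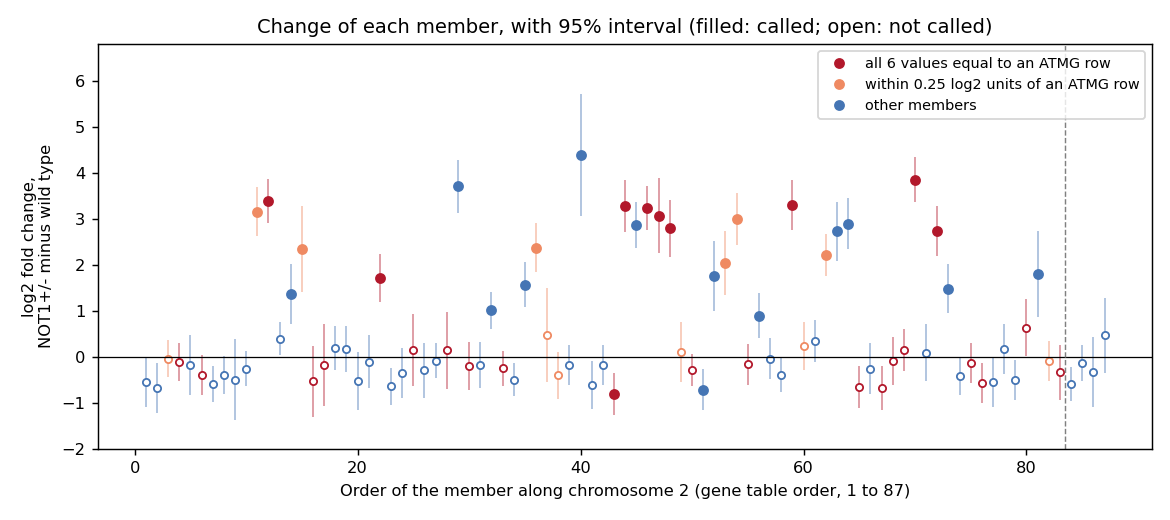
Log2 fold change, NOT1+/- minus wild type, of each of the 87 loci (vertical axis) with its 95% interval, in gene table order along chromosome 2 (horizontal axis); filled symbols passed the test, colours give the match to an ATMG row, and the dashed line marks AT2G07680, after which 4 loci follow. High values from 0.89 to 4.39 stand among values near 0 from order 11 to order 81, and none lies beyond the dashed line.

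By annotation class, transcribed pseudogenes had the largest raised share. Of 15 such loci 10 were higher and 5 did not pass, with a median log2 fold change of 2.73. Protein-coding loci had 15 higher and 1 lower of 51, and their median was -0.09. Of the 8 loci listed as plain pseudogenes limma called 0, with 2 at an unadjusted p under 0.05, both downwards, and the median was -0.24. Over all rows 8.84% were higher and 3.22% lower, so 0 of 8 does not set plain pseudogenes apart from the array. These classes come from the table and say nothing of which genome the RNA came from, and the shares were not tested against each other.

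Transfer RNA loci made up 13 of the 87, with 2 higher, 1 lower and 10 not called. The share of higher loci was 15.4%, against 8.84% of all rows, and 13 loci are too few to set the class apart. AT2G07746, for glutamine, read 7.33, 9.28 and 6.73 in wild type and 67.5, 20.4 and 43.4 in NOT1+/- pollen (log2 fold change 2.34, SE 0.40, limma adjusted p = 0.0071). AT2G07763, for cysteine, read 9.82, 7.32 and 6.48 against 48.1, 14.7 and 27.4 (1.79, SE 0.40, adjusted p = 0.025). In both loci NOT1+/- replicate 2 was the lowest and replicate 1 the highest of the 3 NOT1+/- arrays, and the wild-type values lay below the array medians. ATMG00950, the row nearest to AT2G07746, had the same order, with 73.4, 22.0 and 47.2. AT2G07696, a protein-coding locus that was not called, also dipped on that array, with 33.0, 11.1 and 30.2 (0.47, SE 0.44, adjusted p = 0.56).

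The other raised loci followed a different order of arrays. In 24 of the 25 raised loci outside the transfer RNA class, NOT1+/- replicate 3 was the lowest of the 3, at a median of 65.8% of the geometric mean of replicates 1 and 2. AT2G07689 was the exception, with 39.3, 36.1 and 43.6. This order was not particular to chromosome 2. At the threshold of 4-fold, 18 of 19 loci were lowest on replicate 3, at a median of 64.7% of the others. Of the 706 other rows that rose as much, leaving out ATMG rows, 89.4% were also lowest on it, at a median of 76.1%. Over all rows replicate 3 was the lowest in 36.3%. The 58 loci not called were spread evenly, with 19, 21 and 18 lowest on replicates 1, 2 and 3. Removing NOT1+/- replicate 1, 2 or 3 left 23, 24 or 26 raised loci.

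**Figure D4:**
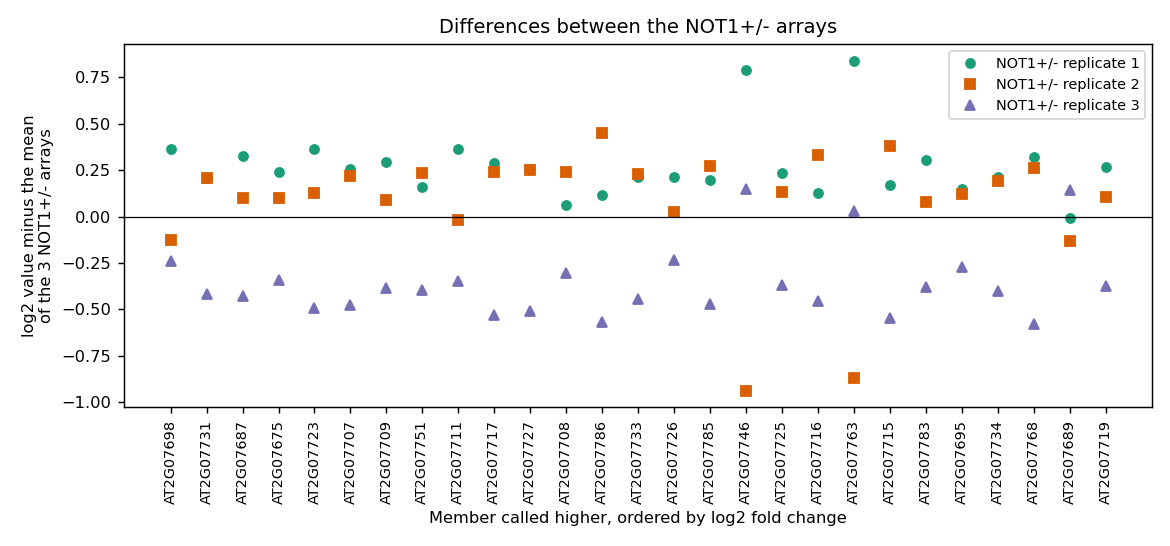
Difference of each NOT1+/- array from the mean of the 3 NOT1+/- arrays, in log2 units (vertical axis), for the 27 raised loci ordered by log2 fold change (horizontal axis). Replicate 3 is lowest in 24 of the 27, while AT2G07746 and AT2G07763 are lowest on replicate 2.

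The mitochondrial genome's own rows gave the setting for these values. Of the 92 ATMG rows 33 were higher and 3 lower, with a median log2 fold change of 0.10, but 28 of the 92 are the rows already counted through their chromosome 2 equals. Among the 64 ATMG rows with no equal among the 87 loci, 24 were higher (37.5%) and 2 lower. These counts include ATMG00080 and ATMG00090, both higher, which were equal to each other. ATMG00170 and ATMG00620, both not called, were also equal, so each pair is 1 measurement. On the chloroplast side 1 of 15 ATCG rows was higher and 0 lower. Of the other 4316 rows of chromosome 2, 377 were higher (8.73%) and 131 lower, with a median of -0.10.

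A list of 38 ATMG codes, given roles from general knowledge and not from the table, had 27 rows on the array. Several codes can belong to 1 gene, so the counts below are of rows and not of genes. Of these 24 were higher and 0 lower, against 9 higher and 3 lower of the 65 ATMG rows on no list. The median wild-type mean was 38.3 for the 27 rows and 14.1 for the 65, and the part of this level in the counts was not tested. The 10 rows for subunits of complex I, the NADH dehydrogenase of the respiratory chain, were all higher and all at least 4-fold. All 3 rows for ATP synthase subunits and all 3 for cytochrome c maturation were higher, as were 6 of 7 for ribosomal proteins and 1 of 2 for complex IV, the cytochrome c oxidase. The raised ribosomal protein rows include the equal pair ATMG00080 and ATMG00090, so 1 measurement is counted under 2 names there and in the 24. The transport protein row was higher and the maturase row did not pass. The complex IV row that did not rise, ATMG00730, had the lowest log2 fold change of all ATMG rows (-0.99, limma adjusted p = 0.18). It read 16.3, 7.37 and 26.6 in wild type and 7.75, 7.70 and 6.85 in NOT1+/- pollen, which overlapped.

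The same measurements stand under the chromosome 2 names, so what follows is no second observation. Of the 28 loci equal to an ATMG row, 9 were equal to a row on the list of known roles, 5 of them for complex I, 2 for cytochrome c maturation, 1 for ATP synthase and 1 for a ribosomal protein, and all 9 were higher. The other 19 were equal to ATMG rows on no list, and of these limma called 0 higher, with 1 upwards at an unadjusted p under 0.05, and 1 lower. The median log2 fold change was 3.24 in the former and -0.20 in the latter. The wild-type medians also differed, with 51.2 for the 9 and 13.7 for the 19, and the part of this level in the result was not tested.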

How the data were processed

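RNA of sorted pollen was hybridised to 1-colour Affymetrix arrays, 3 per genotype. The authors deposited 1 linear intensity per locus and array. The submitters' processing notes name Expression Console; no version, background correction or scaling was found in the labels or headers. On log2 values, unfiltered and without offset, lmFit and eBayes of limma 3.58.1 (R 4.3.3) gave NOT1+/- minus wild type, with Benjamini-Hochberg adjustment over all 27827 rows. The code was tested on simulated data. Fold changes are ratios of geometric means, group values arithmetic means ± SD, and the number of arrays limits the precision. Rows were compared for equality of all 6 deposited values. All 87 loci were found in the gene table (TAIR10.1). Replicates of a genotype are called biological in the labels.

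Replicate numbers were not used to pair the samples in the main test. Deviations from the group mean correlated at 0.114, 0.133 and -0.013 for same-numbered arrays and at -0.208 to 0.093 for the others. Deviations from a mean of 3 arrays depend on each other, so these values cannot decide whether the samples were paired. Loci named are those called, those equal to an ATMG row, the 5 highest and 5 lowest by wild-type mean and the 5 largest differences each way; others were chosen after their values were seen. The loci, lists and rules were chosen with earlier results of these data known. Alternatives were a replicate block, trend and robust priors, array weights, 3 scalings, a filter, an offset, 1 row per set of equal rows and leaving out each array. Python 3.11.15 and matplotlib 3.10.9 were used for counts and figures. No sequences were used here.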

Additional observations from a re-analysis of the deposited data

How the results depend on the processing

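The count of 27 raised loci was the same under all 9 alternatives that kept every array, and 23 to 26 were called without 1 array. With only rows above the median level, AT2G07768 was not tested and AT2G07676 was called in its place. Of the 27 loci, 23 kept their call in every alternative in which they were tested, and the losses of the other 4 came only from leaving out an array. The 2 falls were less stable: 5 loci were lower after centring on the 75th percentile, 4 with array weights, 0 after median centring, 1 with equal rows counted once, 6 among rows above the median level, 1 with the replicate block and 0 without any 1 array. Lower calls over all rows numbered 1460 (75th percentile), 1458 (trend and robust), 571 (median centring), 1490 (16 units added before log2), 1515 (rows above the median level), 1991 (quantile normalization), 555 (replicate block) and 258 to 711 without 1 array. Lower ATMG rows numbered 0 after median centring, 1 after quantile normalization, 1 with the replicate block and 0 to 1 without 1 array. The replicate block left 27 raised loci and 33 raised ATMG rows. The median log2 fold change of the 87 loci was -0.18 (75th percentile), -0.0028 (median centring), -0.026 (16 units added), -0.012 (quantile normalization), 0.55 among rows above the median level, where 54 loci were left, and -0.044 to 0.056 without 1 array. Differences that had not been called turned sign in AT2G07752 without NOT1+/- replicate 1 (-0.058) or wild-type replicate 1 (-0.15; -0.15 to 0.45 without 1 array) and in AT2G07743 without NOT1+/- replicate 2 (0.0012). Fewer samples or rows are built into the settings that drop them; for the other changes the cause was not tested.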

Other observations

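The block of chromosome 2 also held rows with identifiers outside the range. In gene table order, 14 such rows lay among the 83 loci of the block, of which 2 were higher and 5 were equal to an ATMG row. Over all rows 8.84% were higher, so 2 of 14 does not set these rows apart. AT2G07808, equal to ATMG01330, read 23.5, 28.7 and 19.9 in wild type and 42.7, 45.3 and 48.8 in NOT1+/- pollen (log2 fold change 0.94, SE 0.18, limma adjusted p = 0.014). AT2G07811, equal to no ATMG row, read 23.6, 17.9 and 16.9 against 42.0, 51.9 and 35.3 (1.15, SE 0.21, adjusted p = 0.011). The other equal rows, AT2G07809 (ATMG00600), AT2G07812 (ATMG01100), AT2G07813 (ATMG01260) and AT2G07826 (ATMG01210), were not called, with log2 fold changes of -0.95, -0.21, -0.64 and 0.31.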
